A study of Danio rerio with 16 samples.

Results

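Enzymes that oxidise, hydrolyse or conjugate foreign compounds, aldehydes, alcohols and esters were followed in whole zebrafish embryos with and without the related nuclear receptor genes hnf4a and hnf4b. The enzymes were taken by gene symbol, as cytochrome P450 genes of families 1 to 4 and as the ces, ugt, gst, sult, akr, aldh, adh, fmo, aox and ephx genes, without aldh1a2. Of 161 matching symbols among the 36109 in the table, 112 reached a CPM (a count scaled to the total of its library) of at least 1 in at least 4 of the 16 libraries, and these 112 are described. The rule uses this minimum level and no difference between the groups. In all, 84 of the 112 reached the minimum in all 16 libraries. Another 5 reached it through sibling libraries alone (akr1a1a, ces3, cyp2p8, cyp4v8 and gsta.2) and cyp3a65 through knockout libraries alone. For these genes inclusion was not independent of the difference between the genotypes, and their values are given as description. Just inside the limit stood cyp2ad6 in 4 libraries and cyp3a65 and cyp3c4 in 5, and just outside it cyp2x10.2 and sult5a1 in 3. The symbol pattern also took in fmoda and fmodb, which are fibromodulin genes, and gstcd, which shares a domain with glutathione transferases, and these 3 are not enzymes of the families they were matched with.

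Detoxification is usually described in phases. In the first, cytochrome P450 monooxygenases, flavin monooxygenases and the alcohol, aldehyde and aldo-keto oxidoreductases add or expose a reactive group, while carboxylesterases and epoxide hydrolases split esters and epoxides with water. In the second, UDP-glucuronosyltransferases (ugt), glutathione transferases (gst) and sulfotransferases (sult) attach a polar molecule so that the product can be exported. In vertebrates these enzymes are abundant in liver and gut, and many of them also act on the body's own fatty acids, steroids, vitamins and amino acids. Hnf4 proteins are transcription factors of the nuclear receptor family that are known for their role in liver, gut and kidney.

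The labels give 4 groups of 4 libraries. They are siblings at 34 hours post-fertilisation (hpf), hnf4a/hnf4b knockouts at 34 hpf, siblings at 48 hpf and hnf4a/hnf4b knockouts at 48 hpf, all of them untreated. The alleles, the genotypes pooled under the word sibling, the strain and the number of embryos in a library do not appear in the labels. Nor do the labels state whether replicates are separate clutches, and p-values therefore rest on the spread among libraries, which may be technical.

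The libraries held 34588058 to 43194625 counts each. Transcripts of hnf4a and hnf4b were not called different between the genotypes at either stage (edgeR adjusted p from 0.269 to 0.897), so they give no check of the genotype labels. Markers of muscle, neurons, epidermis and blood were present in all libraries of these whole embryos. The summed level of 14 liver markers was 2477 to 3304 CPM in the siblings and 479 to 1487 CPM in the knockouts at 34 hpf, and 1710 to 2707 CPM and 176 to 451 CPM at 48 hpf. Yolk syncytial layer markers (11 genes) summed to 11580 to 14576 CPM and 1041 to 3584 CPM at 34 hpf, and to 8875 to 10801 CPM and 585 to 1367 CPM at 48 hpf. Intestinal markers (10 genes) summed to 184 to 247 CPM and 11 to 15.9 CPM at 34 hpf, and to 89.3 to 183 CPM and 12.4 to 16.2 CPM at 48 hpf. Of the tested markers, 6 of 13 for liver, 6 of 10 for yolk syncytial layer and 3 of 9 for intestine were lower at 34 hpf, and 10, 6 and 4 at 48 hpf, while 1 yolk syncytial layer marker was higher at each stage. Other summed lists were also apart between the genotypes. Leukocyte markers summed to 77.1 to 95.3 CPM in siblings and 112 to 185 CPM in knockouts at 34 hpf, and to 83 to 98.7 CPM and 130 to 478 CPM at 48 hpf. At 48 hpf alone, epidermis and ionocyte markers (15897 to 17048 and 19494 to 20556 CPM), pronephros markers (336 to 368 and 373 to 410 CPM) and endothelial markers (225 to 236 and 243 to 283 CPM) were higher in the knockouts without overlap. Neuron and retina markers summed lower there (1812 to 1945 and 1379 to 1682 CPM). Taken singly, 1 of 10 leukocyte markers was higher at 34 hpf and 3 were at 48 hpf. At 48 hpf 5 of 12 epidermis and ionocyte, 1 of 9 pronephros and 2 of 7 endothelial markers were higher, and 0 were lower. Among 9 neuron and retina markers, 4 were lower and 1 higher at that stage. At 34 hpf, 3 neuron and retina markers were lower and 1 higher, and 2 pronephros markers were lower and 1 higher. Of the epidermis and ionocyte markers 2 were higher at 34 hpf, as was 1 endothelial marker, and 0 were lower. Over all genes tested, 5.21% were lower and 4.09% higher at 34 hpf, and 5.28% and 4.76% at 48 hpf. No marker list was tested as a set. Among the 34 hpf knockouts, replicate 4 had the highest sums of liver, yolk syncytial layer and intestinal markers. None of these markers was at 0 counts throughout a group. Fewer cells of a type and less RNA per cell cannot be told apart in such bulk samples, and the part of these tissues in the results that follow was not tested.

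At 34 hpf, 31 of the 112 genes were lower in the knockouts than in the siblings, 9 were higher and 72 were not called. A gene was called at an adjusted p below 0.05 in edgeR's quasi-likelihood test, with Benjamini-Hochberg adjustment over all 24084 genes tested. The lower genes made up 27.7% of the 112, where 5.21% of all genes tested were lower, and the higher genes 8.04%, where 4.09% of all genes were higher. Among the 20445 genes that met the same minimum level, 5.91% were lower and 4.7% higher. Without the 6 members that met the minimum in only 1 genotype, 26 of 106 were lower and 9 higher. The log2 fold changes of the lower genes ran from -6.46 to -0.29 and those of the higher genes from 0.26 to 1.63. Over all 112 genes the median log2 fold change was -0.11, beside 0.014 over all genes tested.

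At 48 hpf, 26 genes were lower in the knockouts (23.2%, with 5.28% of all genes tested lower), 8 were higher (7.14%, with 4.76% of all genes higher) and 78 were not called. Among genes that met the same minimum level the shares were 5.98% and 5.43%. Without the 6 members passing in 1 genotype, 21 of 106 were lower and 7 higher. The log2 fold changes of the lower genes ran from -9.63 to -0.43 (the largest are fits to very few knockout counts) and those of the higher genes from 0.37 to 2.08, with a median over the 112 genes of -0.11 beside 0.00079 over all genes. The number of higher genes fell in many of the fits that left out 1 library. It was 5 without sibling replicate 2 or 3 at 34 hpf. At 48 hpf it was 3 without sibling replicate 2, 4 without sibling replicate 1, 3 or 4 or knockout replicate 3, and 5 without knockout replicate 2 or 4.

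**Figure D1:**
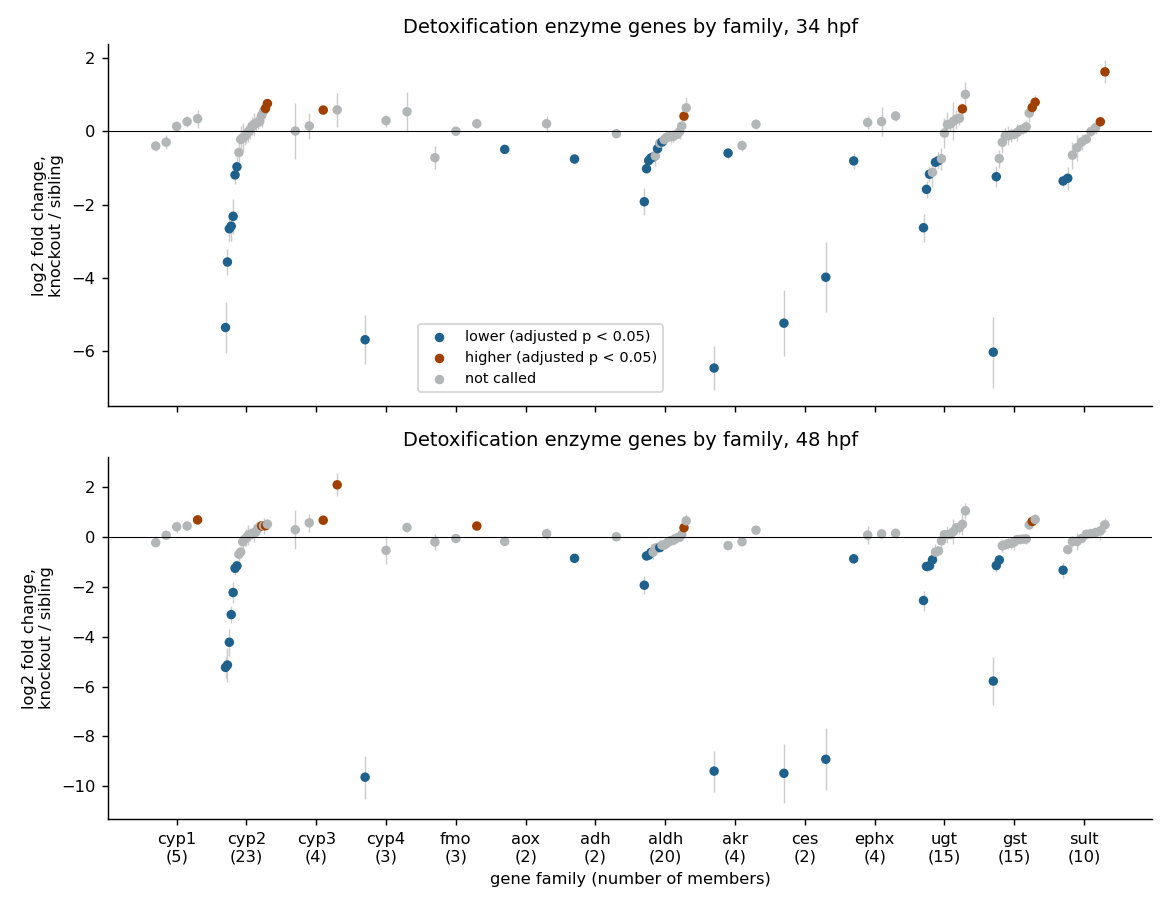
Log2 fold change (knockout against sibling, edgeR) of each of the 112 genes at 34 and 48 hpf, arranged by enzyme family, with called genes coloured, uncalled genes in grey and lines for the SE. The largest falls are those of both carboxylesterases and of members of the akr, gst, cyp2 and cyp4 families, while most genes of the larger families lie near 0.

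Grouped by function from their symbols, 19 of 66 genes of oxidising and reducing families were lower and 4 higher at 34 hpf. At 48 hpf 15 were lower and 7 higher, and the 66 include fmoda and fmodb. Of the 6 ester and epoxide hydrolases 3 were lower and 0 higher at both stages. Of the 40 genes matched as conjugating enzymes 9 were lower and 5 higher at 34 hpf, and 8 were lower and 1 higher at 48 hpf. The 40 include gstcd, which was higher at 34 hpf, and ugt8, which belongs to lipid synthesis and was lower at 34 hpf. Beside these counts, 5.21% of all genes tested were lower and 4.09% higher at 34 hpf, and 5.28% and 4.76% at 48 hpf. No function or family was tested against these shares. The counts keep the members, named above, that met the minimum level in only 1 genotype. Such members fall in each of the function groups, and the counts by function were not repeated without them. Both carboxylesterases passed the test at both stages, and no cyp1 or fmo gene was lower at either stage.

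The 112 genes together took 3357 ± 118 CPM in siblings and 2629 ± 259 CPM in knockouts at 34 hpf (mean ± SD, n = 4). At 48 hpf they took 3158 ± 145 CPM and 2407 ± 100 CPM. The carboxylesterases took 277 ± 76.1 CPM in siblings against 17.3 ± 31 CPM in knockouts at 34 hpf, and 323 ± 67.5 CPM against 0.648 ± 0.343 CPM at 48 hpf. The aldehyde dehydrogenases took 1253 ± 41.5 CPM against 1049 ± 132 CPM, and 1108 ± 41.8 CPM against 904 ± 34.7 CPM. The genes matched as glutathione transferases took 340.4 ± 4.25 CPM against 319.7 ± 42.3 CPM, and 427 ± 31.8 CPM against 349 ± 24.4 CPM. These sums are relative to the scaled total of each library, and longer genes weigh more in them.

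**Figure D2:**
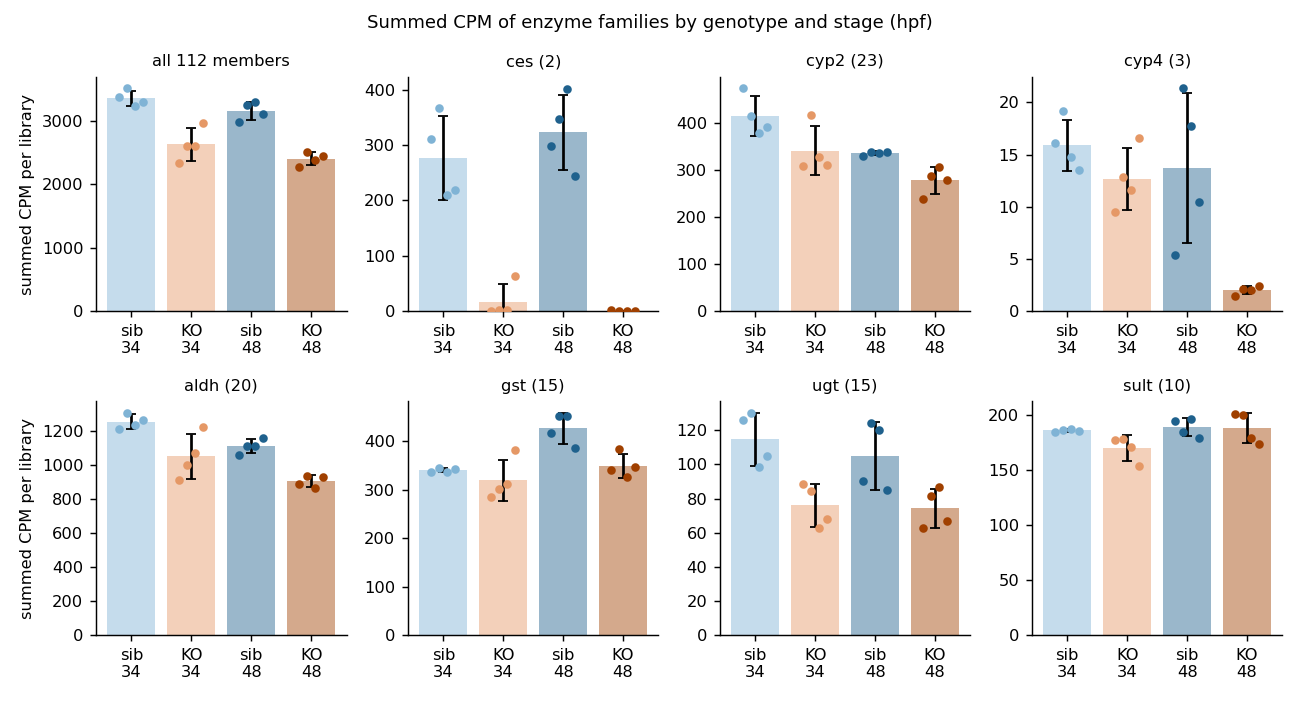
Summed CPM over all 112 genes and over 7 of the families, on linear axes that differ between panels. Bars are group means, error bars the SD and points the 4 libraries of a group, and the carboxylesterase sum goes from 323 ± 67.5 CPM in 48 hpf siblings to 0.648 ± 0.343 CPM in the knockouts of that stage.

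Carboxylesterases split ester and amide bonds in drugs and in lipids, and both measured genes were lower in the knockouts. At 34 hpf ces2 stood at 297, 355, 207 and 215 CPM in the siblings and at 0.427, 2.02, 2.66 and 63.1 CPM in the knockouts. The 48 hpf values were 266, 327, 381 and 242 CPM and 0.975, 0.479, 0.763 and 0.281 CPM. Every sibling library lay above every knockout library, and knockout replicate 4 at 34 hpf lay far above the other 3 knockouts of its stage. The log2 fold change was -3.98 ± 0.95 (SE) at 34 hpf (edgeR adjusted p = 0.0131) and -8.92 ± 1.25 at 48 hpf (adjusted p = 0.000192). Without knockout replicate 4 the value at 34 hpf was -7.32, and with the replicate number as a block it was -6.14 (adjusted p = 0.00208), while limma-voom gave -6.31. The call at 34 hpf was lost when only the compared libraries were fitted (adjusted p = 0.0877, with 3.19e-08 to 0.0877 over all alternatives and omissions).

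The second carboxylesterase gene, ces3, had lower counts and fell with it. Its levels at 34 hpf were 13.4, 13.1, 2.77 and 2.73 CPM in siblings and 0.0949, 0, 0.100 and 0.656 CPM in knockouts. At 48 hpf they were 31.5, 20.4, 20.8 and 2.72 CPM and 0.0929, 0, 0 and 0 CPM. The sibling replicates 3 and 4 at 34 hpf and replicate 4 at 48 hpf were the low siblings, and the genotypes did not overlap. The log2 fold changes were -5.23 ± 0.90 (edgeR adjusted p = 0.00141) and -9.48 ± 1.18 (adjusted p = 6.51e-05), and -6.82 at 34 hpf without knockout replicate 4. All counts of the 48 hpf knockouts came from replicate 1. In limma-voom neither call was kept (adjusted p = 0.215 and 0.137, with 0.000262 to 0.215 and 1.22e-10 to 0.137 over all alternatives and omissions).

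Of the 4 epoxide hydrolases, ephx5 was lower at both stages and ephx1, ephx2 and ephx4 were not called. The level of ephx5 was 5.89 ± 0.877 CPM in siblings and 3.37 ± 0.958 CPM in knockouts at 34 hpf (-0.81 ± 0.21), and 4.47 ± 0.702 CPM and 2.42 ± 0.391 CPM at 48 hpf (-0.88 ± 0.21). The call at 34 hpf (edgeR adjusted p = 0.0221) was lost without sibling library 4 or knockout library 3 (adjusted p 0.0578 to 0.0735) and with only the compared libraries (adjusted p = 0.0742, with 0.0045 to 0.0742 over all alternatives and omissions). The microsomal enzyme gene ephx1 was at 0.42 ± 0.14 and 0.12 ± 0.14, and the soluble enzyme gene ephx2 at 0.24 ± 0.18 and 0.14 ± 0.18.

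**Figure D3:**
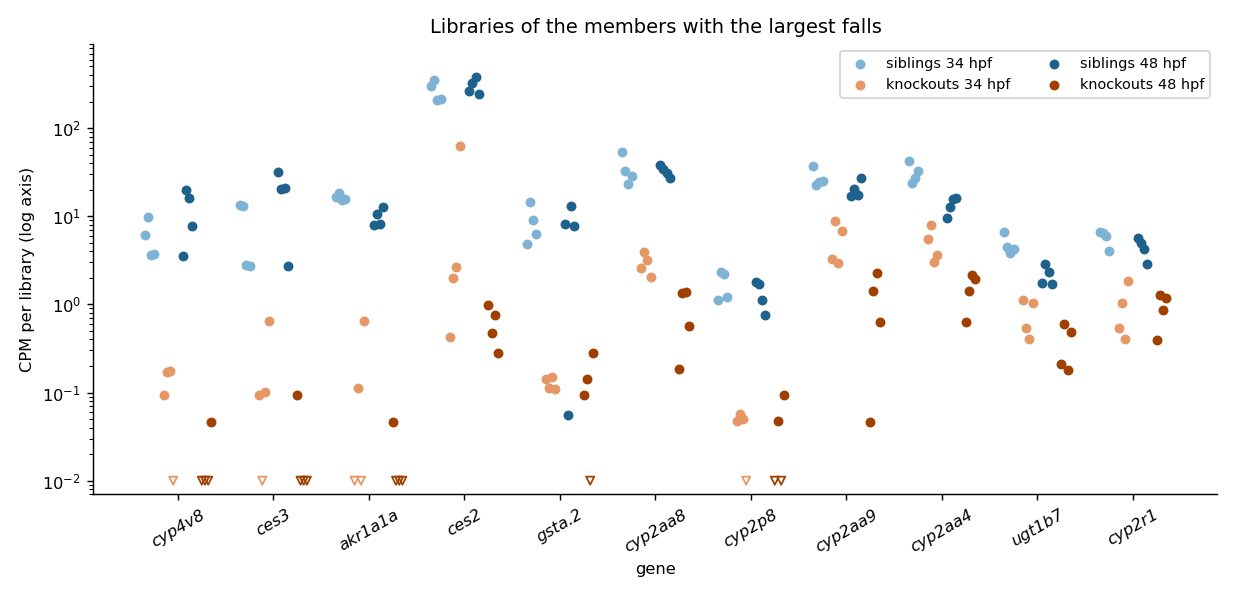
CPM in each of the 16 libraries, on a log axis, of the 11 genes that were called lower by more than 2 log2 units at both stages. Open triangles at the bottom mark libraries with 0 counts, and sibling points lie above the knockout points of their stage for all but gsta.2, where sibling replicate 2 at 48 hpf was at 0.0553 CPM. The genes were chosen for their large falls, so this separation is no further evidence.

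Aldo-keto reductases reduce aldehydes and ketones. The aldehyde reductase gene akr1a1a was near 0 in the knockouts, while its paralog akr1a1b was not called. The gene akr1a1a stood at 16.7, 18.5, 15.3 and 15.7 CPM in the 34 hpf siblings and at 0, 0.114, 0 and 0.656 CPM in the knockouts. In the later embryos (48 hpf) the levels were 8.06, 10.6, 8.27 and 12.9 CPM and 0.0464, 0, 0 and 0 CPM. The sibling libraries lay close together and far above every knockout library. Its log2 fold change was -6.46 ± 0.60 at 34 hpf (edgeR adjusted p = 3.8e-06), or -8.79 without knockout replicate 4 and -8.20 in limma-voom. At 48 hpf the 4 knockout libraries held 2 counts in all, from replicate 1, and the sibling level was 852-fold higher (95% counting interval 235 to 7043). The level of akr1a1b was 22.7 ± 2.27 CPM in siblings and 26 ± 5.47 CPM in knockouts at 34 hpf (0.19 ± 0.13), and at 48 hpf it differed by 0.27 ± 0.13. The aldose reductase gene akr1b1 was not called. The gene akr7a3, whose mammalian counterpart reduces aflatoxin aldehyde, was lower at 34 hpf (-0.59 ± 0.15, edgeR adjusted p = 0.0169). That call was lost without sibling libraries 1 or 2 (adjusted p 0.0535 to 0.065) and with only the compared libraries (adjusted p = 0.079, with 0.00179 to 0.079 over all alternatives and omissions).

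The P450 genes of family 2 were the largest family, with 23 genes, of which the same 7 were lower and the same 2 higher at both stages. The lower genes were cyp2aa3, cyp2aa4, cyp2aa8, cyp2aa9, cyp2p8, cyp2r1 and cyp2x7, and the higher genes cyp2ad3 and cyp2v1. The cyp2aa subfamily is known from fish, and the cyp2p, cyp2ad and cyp2v genes are fish relatives of the mammalian CYP2J genes, which act on fatty acids.

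Among the 8 cyp2aa genes the lower ones ranged widely in size. The level of cyp2aa8 was 53.8, 33, 22.9 and 28.5 CPM in the 34 hpf siblings and 2.61, 3.89, 3.16 and 2.02 CPM in the knockouts. The levels at 48 hpf were 38.3, 34.6, 31.3 and 27.4 CPM and 0.186, 1.34, 1.39 and 0.562 CPM. The genotypes did not overlap at either stage, and the log2 fold changes were -3.57 ± 0.36 and -5.23 ± 0.41 (edgeR adjusted p = 9.71e-06 and 5.25e-07). The level of cyp2aa9 was 36.9, 22.5, 24.3 and 25.1 CPM in siblings and 3.27, 8.8, 2.98 and 6.81 CPM in knockouts at 34 hpf. The corresponding 48 hpf levels were 17.1, 20.3, 17.2 and 27.1 CPM and 0.0464, 1.41, 2.24 and 0.632 CPM. Its log2 fold changes were -2.32 ± 0.48 and -4.23 ± 0.54, and -4.90 at 48 hpf without knockout replicate 3 or -5.08 in limma-voom. Its genotypes did not overlap either. The gene cyp2aa4 fell from 31.6 ± 8.18 to 5.02 ± 2.2 CPM at 34 hpf (-2.66 ± 0.33) and from 13.5 ± 3.05 to 1.55 ± 0.692 CPM at 48 hpf (-3.12 ± 0.35). The smallest of the 4 falls was that of cyp2aa3 (-0.97 ± 0.27 and -1.26 ± 0.27). Its call at 34 hpf (edgeR adjusted p = 0.0309) was lost without sibling libraries 1 or 2 or knockout libraries 1 or 3 (adjusted p 0.0675 to 0.105) and with only the compared libraries (adjusted p = 0.0569, with 0.00331 to 0.105 over all alternatives and omissions). The other 4 genes were not called at either stage and stood at 0.14 (cyp2aa1), -0.58 (cyp2aa2), 0.22 (cyp2aa6) and -0.082 (cyp2aa7) at 34 hpf on the log2 scale. At 48 hpf they stood at -0.61, -0.69, 0.12 and 0.42. Reads of such similar neighbours could be split between them in counting, so the values of single cyp2aa genes are uncertain.

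The gene cyp2p8 was near 0 in the knockouts while its relatives were not called. At 34 hpf it measured 1.12, 2.33, 2.22 and 1.2 CPM in the siblings and 0.0474, 0.0568, 0.0501 and 0 CPM in the knockouts. At 48 hpf the values were 1.79, 1.71, 1.11 and 0.754 CPM and 0, 0.0479, 0 and 0.0936 CPM. The genotypes did not overlap, with log2 fold changes of -5.35 ± 0.69 and -5.14 ± 0.69 (edgeR adjusted p = 0.000108 and 0.000134), and -6.19 at 48 hpf without knockout replicate 4. The genes cyp2p6, cyp2p7 and cyp2p10 were not called, with -0.14 ± 0.23, 0.19 ± 0.31 and 0.24 ± 0.19 at 34 hpf. The higher genes cyp2ad3 and cyp2v1 moved by less. The gene cyp2ad3 went from 18.7 ± 2.34 to 31.6 ± 4.09 CPM at 34 hpf (0.76 ± 0.11) and from 27.9 ± 2.13 to 37.8 ± 1.61 CPM at 48 hpf (0.44 ± 0.10). The second of these calls (edgeR adjusted p = 0.0126) was lost without sibling libraries 1, 2 or 4 or knockout library 2 (adjusted p 0.0531 to 0.0632). The values of cyp2v1 were 0.63 ± 0.087 and 0.44 ± 0.087.

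The vitamin D hydroxylase gene cyp2r1, whose product makes 25-hydroxyvitamin D, was lower at both stages. It measured 6.56, 6.43, 6.04 and 4.05 CPM in the siblings and 0.545, 1.05, 0.401 and 1.86 CPM in the knockouts at 34 hpf. The 48 hpf values were 5.65, 4.92, 4.27 and 2.86 CPM and 0.395, 1.29, 0.875 and 1.19 CPM. The log2 fold changes were -2.59 ± 0.42 and -2.23 ± 0.41 (edgeR adjusted p = 0.000767 and 0.00211), with no overlap of the genotypes. Other genes of this vitamin's metabolism, which were not members, lay on either side. The activating hydroxylase gene cyp27b1 was lower (-3.80 ± 0.52 and -3.40 ± 0.50) and the inactivating hydroxylase gene cyp24a1 higher (2.68 ± 0.65 and 2.26 ± 0.63). The call of cyp24a1 at 34 hpf was lost without knockout replicate 1 (1.89, edgeR adjusted p = 0.0563) and in limma-voom (adjusted p = 0.0711, with 0.00233 to 0.0711 over all alternatives and omissions). At 48 hpf it was lost without sibling replicate 1 or 4 or knockout replicate 1 or 4 (adjusted p 0.0567 to 0.0804). The gene cyp2x7 was lower by less (-1.19 ± 0.25 and -1.17 ± 0.25). The other family 2 genes, cyp2ad6, cyp2ae1, cyp2j20, cyp2k8, cyp2k16, cyp2u1 and cyp2y3, were not called at either stage.

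Family 1 P450 genes, some of which are known targets of the aryl hydrocarbon receptor in vertebrates, were not called at 34 hpf, and 1 of 5 was higher at 48 hpf. The best known of these targets, cyp1a, measured 8.84 ± 1.07 CPM in the siblings and 11.3 ± 3.25 CPM in the knockouts at 34 hpf (0.35 ± 0.25). At 48 hpf it stood at 9.28 ± 1.43 CPM and 12.3 ± 4.84 CPM (0.40 ± 0.25, edgeR adjusted p = 0.359). The smallest p of the family at 34 hpf was that of cyp1c1 (-0.40 ± 0.13, edgeR adjusted p = 0.0712). The gene cyp1b1 stood at -0.29 ± 0.20 at 34 hpf and was higher by 0.68 ± 0.20 at 48 hpf (edgeR adjusted p = 0.0367). That call was lost without any 1 of the 4 sibling libraries or knockout libraries 2, 3 or 4 (adjusted p 0.0664 to 0.165) and in limma-voom (adjusted p = 0.0534, with 0.0116 to 0.165 over all alternatives and omissions).

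Of the 4 family 3 genes, cyp3c1 was higher at both stages and cyp3a65 at 48 hpf. Family 3 enzymes break down steroids and many drugs. The level of cyp3c1 went from 19.6 ± 3.17 to 29.4 ± 3.84 CPM (0.58 ± 0.14) and from 20.8 ± 4.26 to 33 ± 1.5 CPM (0.66 ± 0.14). Its call at 34 hpf (edgeR adjusted p = 0.0134) was lost without sibling library 2 or knockout library 3 (adjusted p 0.0529 to 0.055). The gene cyp3a65 stood at 0.648, 0.663, 0.31 and 0.269 CPM in the 48 hpf siblings and 3.34, 1.37, 2.2 and 1.15 CPM in the knockouts. All 4 knockouts lay above the siblings, at levels near the minimum for inclusion. The gene met that minimum through knockout libraries alone, so its inclusion was not independent of this difference. The log2 fold change there was 2.08 ± 0.46 (edgeR adjusted p = 0.00783), and 0.59 ± 0.47 at 34 hpf (adjusted p = 0.503). Its relatives cyp3c3 (0.15 ± 0.37 and 0.56 ± 0.37) and cyp3c4 (0.011 ± 0.76 and 0.28 ± 0.78) were not called.

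Of the 3 family 4 genes, whose mammalian counterparts hydroxylate fatty acids, cyp4v8 was near 0 in the knockouts. It stood at 6.13, 9.91, 3.62 and 3.76 CPM in the 34 hpf siblings and 0.0949, 0.17, 0.176 and 0 CPM in the knockouts. In the later embryos (48 hpf) the levels were 3.58, 19.8, 15.9 and 7.73 CPM and 0, 0, 0 and 0.0468 CPM. The genotypes were far apart at both stages, with a log2 fold change of -5.69 ± 0.67 at 34 hpf (edgeR adjusted p = 3.95e-05). At 48 hpf the knockouts held 2 counts in all, from replicate 4, and the sibling level was 1005-fold higher (95% counting interval 278 to 8307). Its paralog cyp4v7 was not called (0.54 ± 0.54 and -0.54 ± 0.56), nor was cyp4t8 (0.29 ± 0.17 and 0.37 ± 0.19).

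Aldehyde dehydrogenases turn aldehydes into acids, and several of them serve amino acid, folate and carnitine metabolism. Of 20 genes, 7 were lower and 1 higher at 34 hpf, and 5 were lower and 1 higher at 48 hpf. The largest fall was that of aldh8a1, whose mammalian counterpart acts in tryptophan breakdown. It measured 7.22, 7.06, 5.19 and 9.46 CPM in the siblings and 0.711, 1.85, 1.45 and 3.66 CPM in the knockouts at 34 hpf. The levels at 48 hpf were 8.92, 8.4, 7.78 and 7.73 CPM and 1.07, 3.00, 2.29 and 2.2 CPM. The genotypes did not overlap, and the log2 fold changes were -1.92 ± 0.37 and -1.94 ± 0.36 (edgeR adjusted p = 0.00302 and 0.00254).

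In proline metabolism, aldh4a1, of proline breakdown, fell from 89.2 ± 4.71 to 44 ± 3.01 CPM at 34 hpf (-1.02 ± 0.10) and from 65.1 ± 10.1 to 38.2 ± 3.64 CPM at 48 hpf (-0.77 ± 0.10). The proline synthesis gene aldh18a1 was lower by less at 34 hpf (-0.29 ± 0.083, edgeR adjusted p = 0.0374) and not called at 48 hpf (-0.021 ± 0.083). Its call was lost with the replicate block (adjusted p = 0.0597, with 0.0147 to 0.136 over all alternatives and omissions) and without sibling libraries 2, 3 or 4 or knockout libraries 1 or 2 (adjusted p 0.0679 to 0.136). In edgeR it was also lost with upper quartile scaling (adjusted p = 0.0731), no filter (adjusted p = 0.0589) or only the compared libraries (adjusted p = 0.124). In folate metabolism, the cytosolic 10-formyltetrahydrofolate dehydrogenase gene aldh1l1 was lower at both stages (-0.47 ± 0.10 and -0.63 ± 0.10). Its mitochondrial relative aldh1l2 was lower at 34 hpf (-0.80 ± 0.15) and not called at 48 hpf (-0.19 ± 0.15).

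The aldh9a1 genes belong to carnitine synthesis. Of them, aldh9a1b was lower at both stages (-0.70 ± 0.17 and -0.73 ± 0.17), with its call at 34 hpf lost when only the compared libraries were fitted (edgeR adjusted p = 0.0614, with 0.000246 to 0.0614 over all alternatives and omissions). The gene aldh9a1a.1 was called at 48 hpf (-0.15 ± 0.10 and -0.43 ± 0.10) and aldh9a1a.2 at neither stage (-0.67 ± 0.28 and -0.62 ± 0.29). The fatty aldehyde dehydrogenase gene aldh3a2b was lower at 34 hpf (-0.72 ± 0.18) and not called at 48 hpf (-0.45 ± 0.18). In contrast, aldh3b1 was higher (0.42 ± 0.11 and 0.37 ± 0.11, edgeR adjusted p = 0.0218 and 0.0414). At 34 hpf this call was lost without sibling libraries 2 or 3 or knockout library 3 (adjusted p 0.0617 to 0.0789), and at 48 hpf without any 1 of the 4 sibling libraries or knockout libraries 1, 3 or 4 (adjusted p 0.0755 to 0.189) and with the replicate block (adjusted p = 0.0634, with 0.02 to 0.189 over all alternatives and omissions). The 48 hpf call was also lost in limma-voom (adjusted p = 0.0595), and in edgeR without a filter (adjusted p = 0.056) or with only the compared libraries (adjusted p = 0.0714). The mitochondrial genes aldh2.1 and aldh2.2, of acetaldehyde oxidation, were not called (-0.32 ± 0.12 and -0.0083 ± 0.19 at 34 hpf).

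Of the 2 alcohol dehydrogenases, adh8b was lower at both stages. It fell from 122 ± 5.11 to 72.3 ± 17.8 CPM at 34 hpf (-0.75 ± 0.13, edgeR adjusted p = 0.00119) and from 89.9 ± 8.16 to 49.4 ± 3.6 CPM at 48 hpf (-0.86 ± 0.13, adjusted p = 0.000328). The formaldehyde-oxidising enzyme gene adh5 was not called (-0.063 ± 0.10 and 0.0017 ± 0.10). The aldehyde oxidase gene aox5 was lower at 34 hpf (-0.49 ± 0.10) and not called at 48 hpf (-0.19 ± 0.10), and aox6 was not called. The flavin monooxygenase gene fmo5 was not called at 34 hpf (0.21 ± 0.11) and was higher at 48 hpf (0.43 ± 0.12, edgeR adjusted p = 0.0238), a call lost without sibling libraries 2 or 3 or knockout libraries 2 or 3 (adjusted p 0.0582 to 0.119).

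Of the 15 genes matched as ugt, 5 were lower and 1 higher at 34 hpf, and 4 were lower and 0 higher at 48 hpf. The 4 ugt1 genes above the minimum level, ugt1a7, ugt1b1, ugt1b5 and ugt1b7, were lower at both stages. Below that level, ugt1b4 was not called (2.46 ± 0.95 and 1.64 ± 1.01), with 22 counts over the siblings and 125 over the knockouts at 34 hpf. In mammals ugt1 enzymes conjugate bilirubin, phenols and steroids. The level of ugt1a7 was 16, 27.1, 18.6 and 18.6 CPM in siblings and 8.92, 6.9, 6.22 and 4.76 CPM in knockouts at 34 hpf. The corresponding 48 hpf levels were 15.1, 18.4, 18.3 and 9.89 CPM and 6.31, 9.56, 9.13 and 7.53 CPM. All knockout libraries lay below all siblings of their stage, with log2 fold changes of -1.58 ± 0.23 and -0.92 ± 0.22 (edgeR adjusted p = 0.000263 and 0.0129). The level of ugt1b7 was 6.7, 4.48, 3.82 and 4.25 CPM in siblings and 1.11, 0.54, 0.401 and 1.04 CPM in knockouts at 34 hpf. At 48 hpf the values were 1.76, 2.9, 2.35 and 1.7 CPM and 0.209, 0.599, 0.18 and 0.491 CPM. Its genotypes did not overlap at either stage. The changes were -2.63 ± 0.38 and -2.55 ± 0.40 for ugt1b7 and -1.17 ± 0.23 and -1.16 ± 0.23 for ugt1b1. For ugt1b5 they were -0.80 ± 0.23 and -1.19 ± 0.23, with the call at 34 hpf (edgeR adjusted p = 0.0341) lost without sibling libraries 1, 2 or 4 or knockout libraries 1, 2 or 3 (adjusted p 0.0525 to 0.112). The ugt1 genes of zebrafish share sequence, so reads may be split between them.

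Of the other ugt genes, ugt8 was lower at 34 hpf (-0.84 ± 0.18) and not called at 48 hpf (-0.57 ± 0.18). Its mammalian counterpart makes the myelin lipid galactosylceramide and is not a glucuronosyltransferase. The first call was lost with only the compared libraries (edgeR adjusted p = 0.0549, with 0.000214 to 0.0549 over all alternatives and omissions). The gene ugt2a6 was higher at 34 hpf (0.61 ± 0.17, edgeR adjusted p = 0.031), a call lost without any 1 of the 4 sibling libraries or knockout libraries 1 or 2 (adjusted p 0.0575 to 0.0913) and with only the compared libraries (adjusted p = 0.0651, with 0.00847 to 0.0913 over all alternatives and omissions). The other 9 genes, ugt2a5, ugt2a7 and the 7 ugt5 genes, which belong to a fish family, were not called at either stage.

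Of the 15 genes matched as glutathione transferases, 2 were lower and 2 higher at 34 hpf, and 3 were lower and 1 higher at 48 hpf. These enzymes join glutathione to reactive compounds. The alpha class gene gsta.2 had the largest change. It measured 4.87, 14.4, 9.15 and 6.29 CPM in the siblings and 0.142, 0.114, 0.15 and 0.109 CPM in the knockouts at 34 hpf. The 48 hpf values were 8.19, 0.0553, 13 and 7.68 CPM and 0.0929, 0.144, 0 and 0.281 CPM. Sibling replicate 2 at 48 hpf stood among the knockouts, while at 34 hpf the genotypes did not overlap. The log2 fold changes were -6.03 ± 0.97 and -5.78 ± 0.96 (edgeR adjusted p = 0.000803 and 0.000897), and -6.51 at 48 hpf without knockout replicate 4 or -5.09 in limma-voom. Neither call was kept in limma-voom (adjusted p = 0.206 and 0.344, with 2.47e-07 to 0.206 and 6.94e-07 to 0.344 over all alternatives and omissions).

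The neighbouring and similar gene gsta.1 was not called (-0.12 ± 0.26 and -0.36 ± 0.26), and reads of this pair could be split between them. The theta class genes gstt2 (-1.24 ± 0.28 and -1.15 ± 0.28) and gstt1a (-0.74 ± 0.25 and -0.93 ± 0.25) were lower at both stages and at 48 hpf, respectively. The call of gstt1a (edgeR adjusted p = 0.0234) was lost without sibling libraries 2 or 3 or knockout libraries 3 or 4 (adjusted p 0.0501 to 0.0697). The omega class gene gsto2 was higher at both stages (0.80 ± 0.19 and 0.61 ± 0.19). Its call at 34 hpf was lost with only the compared libraries (edgeR adjusted p = 0.0613, with 0.000963 to 0.0613 over all alternatives and omissions). At 48 hpf it was lost in every omission of 1 library, that is without any 1 of the 4 sibling libraries or any 1 of the 4 knockout libraries (adjusted p 0.0587 to 0.18), and with DESeq2's size factors (adjusted p = 0.0526, with 0.00969 to 0.18 over all alternatives and omissions). The gene gstcd was higher at 34 hpf (0.65 ± 0.16), a call lost without sibling library 3 (adjusted p = 0.0548) and with only the compared libraries (edgeR adjusted p = 0.0529, with 0.00345 to 0.0548 over all alternatives and omissions). The mu class genes gstm.1, gstm.2 and gstm.3 and the pi class gene gstp1 were not called, with gstp1 at 0.042 ± 0.11 and -0.32 ± 0.11.

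Of the 10 sulfotransferases, 2 were lower and 2 higher at 34 hpf, and 1 was lower and 0 higher at 48 hpf. Cytosolic sulfotransferases of family 1 act on phenols and thyroid hormones and those of family 2 on hydroxysteroids. The gene sult1st4 fell from 6.6 ± 1.82 to 2.72 ± 1.37 CPM at 34 hpf (-1.28 ± 0.32) and from 5.31 ± 1.64 to 2.1 ± 0.512 CPM at 48 hpf (-1.34 ± 0.32). Its call at 34 hpf (edgeR adjusted p = 0.0164) was lost without sibling library 2 (adjusted p = 0.0625) and with only the compared libraries (adjusted p = 0.0544, with 0.00113 to 0.0625 over all alternatives and omissions). The gene sult2st2 was lower at 34 hpf (-1.35 ± 0.17) and not called at 48 hpf (-0.51 ± 0.17). The gene sult1st5 measured 1.04, 0.516, 0.466 and 0.909 CPM in the siblings and 2.11, 2.58, 2.68 and 1.72 CPM in the knockouts at 34 hpf, and was higher in the knockouts (1.63 ± 0.31, edgeR adjusted p = 0.00293). The genotypes did not overlap there. At 48 hpf sult1st5 was not called (0.48 ± 0.29). The gene sult6b1 was higher at 34 hpf by a small amount (0.26 ± 0.08, edgeR adjusted p = 0.049). That call was lost with the replicate block (adjusted p = 0.0637, with 0.0148 to 0.141 over all alternatives and omissions) and without any 1 of the 4 sibling libraries or knockout libraries 1, 2 or 3 (adjusted p 0.0784 to 0.139). It was also lost in limma-voom (adjusted p = 0.0591), and in edgeR without a filter (adjusted p = 0.0833) or with only the compared libraries (adjusted p = 0.141). The other 6 sulfotransferase genes were not called at either stage, among them sult1st1 (-0.21 ± 0.11 and -0.068 ± 0.11).

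Most genes had effects of the same sign at the 2 stages. Across the 112 genes the log2 fold changes at 34 and 48 hpf had a Pearson correlation of 0.931 and a Spearman correlation of 0.848, and 95 genes (84.8%) had the same sign. Without the 6 genes that reached the minimum level in 1 genotype alone, the correlations over the other 106 were 0.872 and 0.822, and over all 24084 genes tested they were 0.656 and 0.509, with 69.7% of the same sign. This is across genes, which share their libraries and are not independent replicates. In all, 24 genes were lower at both stages (2.6% of all genes tested were), 5 were higher at both (1.88% of all genes), 0 were called in opposite directions and 67 were called at neither. The 24 include akr1a1a, ces3, cyp2p8, cyp4v8 and gsta.2, which met the minimum level through sibling libraries alone. The 5 genes higher at both stages were cyp2ad3, cyp2v1, cyp3c1, gsto2 and aldh3b1.

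**Figure D4:**
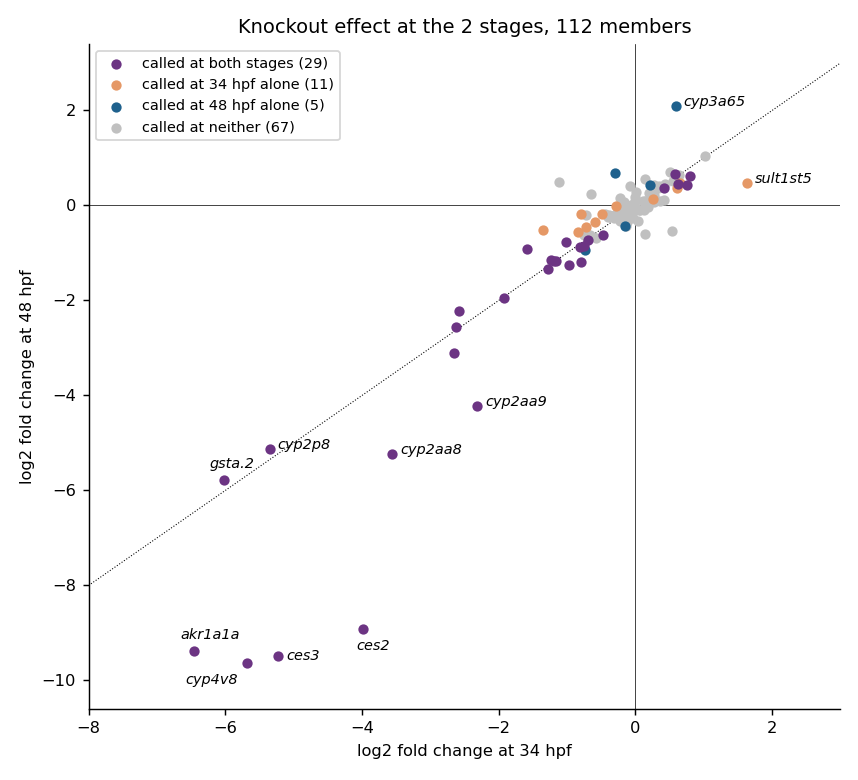
Log2 fold change of each of the 112 genes at 34 hpf (x axis) and 48 hpf (y axis), with colours for the stages at which it was called and a line of equal values. Most genes lie near the line, while ces2, ces3, akr1a1a, cyp4v8, cyp2aa8 and cyp2aa9 lie below it, and none of the 112 was called different between the stages in edgeR.

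Tested directly, 0 of the 112 knockout effects differed between the stages in edgeR, where 0.116% of all genes had a lower and 0.0872% a higher effect at 48 hpf. At an unadjusted p under 0.05 edgeR counted 17 genes, DESeq2 16 and limma-voom 11, and the smallest adjusted p in edgeR was 0.266. The share of all genes at that unadjusted level was not counted, so these numbers show no excess among the enzymes. DESeq2 called 1 gene, ces2, whose fall was larger at 48 hpf by 4.97 log2 units in that fit (-4.97, adjusted p = 0.0389). In edgeR the same difference was -4.94 ± 1.4 (adjusted p = 0.269, with 0.0389 to 0.818 over all alternatives and omissions), and without knockout replicate 4 of 34 hpf it was -1.60.

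In siblings, 13 of the 112 genes were higher and 21 lower at 48 than at 34 hpf, beside 18.3% higher and 15.7% lower of all genes tested. As shares of the 112 genes these were 11.6% and 18.8%. The largest drop was that of cyp4t8, from 8.88 ± 0.422 CPM to 1.07 ± 0.137 CPM (-3.05 ± 0.19, edgeR adjusted p = 5.41e-09). It was followed by ugt5a4 (-1.89 ± 0.42), cyp2p7 (-1.38 ± 0.33), sult2st2 (-1.29 ± 0.17) and cyp2aa4 (-1.23 ± 0.31). The largest rise was that of ephx4, from 0.547 ± 0.247 CPM to 2.3 ± 0.47 CPM (2.06 ± 0.39, edgeR adjusted p = 0.000505). It was followed by sult1st5 (1.71 ± 0.31), ugt2a7 (1.63 ± 0.40) and sult4a1 (1.14 ± 0.18), whose mammalian counterpart is known from brain. The labels give the stage as the batch of each library, so stage and batch cannot be told apart.

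Many of these genes stand next to relatives in the genome. In the gene order of RefSeq's assembly GRCz12tu, 109 of the 112 genes were found, and runs were formed from all matched symbols, also those below the minimum level, with at most 1 other protein-coding gene between neighbours. Of the 112 genes, 55 lay in the 19 runs that held at least 2 of them. Members of a run did not all move together. The run cyp2aa6, cyp2aa7, cyp2aa4, cyp2aa8, cyp2aa9, cyp2aa1, cyp2aa2 and cyp2aa3, in this order, held 4 genes lower at both stages, 3 of them side by side and cyp2aa3 at the end. In the run cyp2ad6, cyp2v1, cyp2ad3, cyp2p6, cyp2p7, cyp2p8, cyp2p10 and cyp2j20, cyp2p8 was lower and cyp2v1 and cyp2ad3 higher at both stages. Both ces2 and ces3 were lower at both stages, as were ugt1b7, ugt1b5 and ugt1b1. The last 3 share a run with ugt1b4, which was not called and stood at positive values, and with ugt1b3 and ugt1b2, which were not tested. In contrast, gsta.2 was lower and its neighbour gsta.1 was not called, and of sult2st1 and sult2st2 the second alone was called, at 34 hpf.

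**Figure D5:**
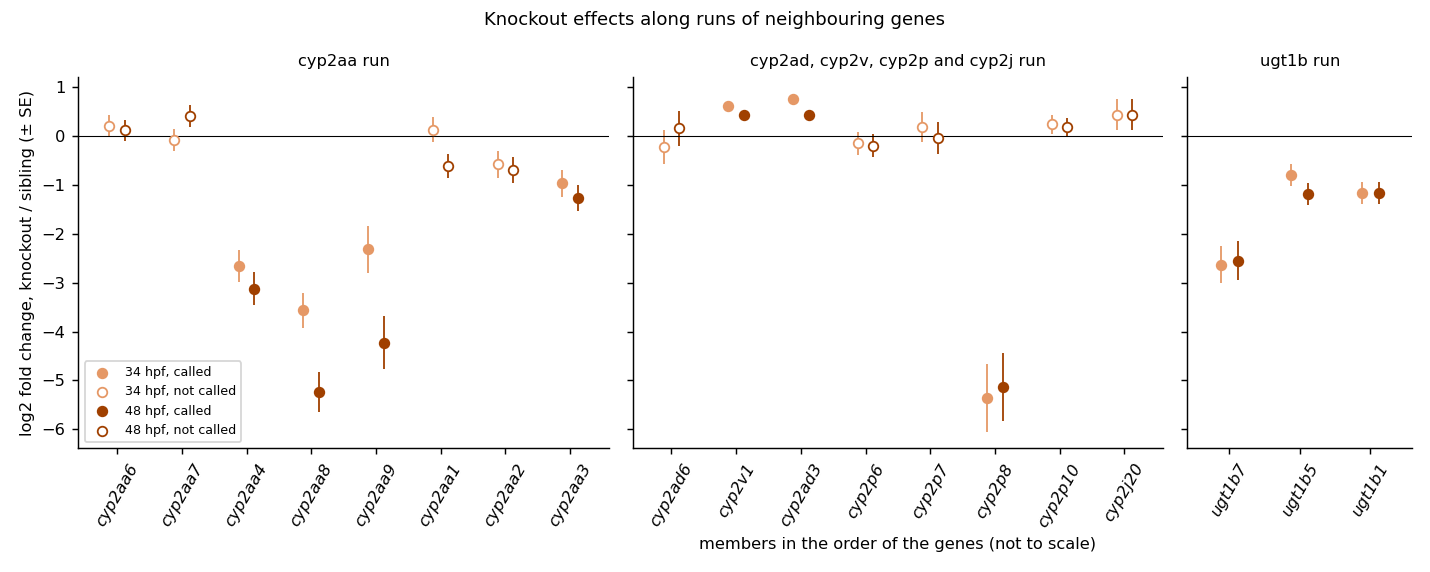
Log2 fold change (± SE) at 34 and 48 hpf of the genes above the minimum level in 3 runs of neighbours, drawn in their order along the chromosome and not to scale, with ugt1b4 and other genes below that level left out. Called genes are filled, and within the cyp2aa run the falls of cyp2aa4, cyp2aa8 and cyp2aa9 stand beside uncalled neighbours.

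Genes that supply or regulate these enzymes and that were not members were also counted. Over all genes tested, 5.21% were lower and 4.09% higher at 34 hpf, and 5.28% and 4.76% at 48 hpf. No list in this or the next paragraph was tested as a set. Of 25 electron transfer partners and xenobiotic regulators, 3 were lower and 1 higher at 34 hpf, and 2 were lower and 3 higher at 48 hpf. The gene of cytochrome b5, cyb5a, which passes electrons to P450 enzymes, was lower (-0.64 ± 0.086 and -0.36 ± 0.086), and the nuclear receptor gene nr0b2a was higher (1.26 ± 0.26 and 1.12 ± 0.26). Of 29 genes of conjugation cofactor supply and other conjugating enzymes, 3 were lower and 0 higher at 34 hpf, and 2 were lower and 0 higher at 48 hpf. They included papss1, which makes the sulfate donor (-0.54 ± 0.10 and -0.47 ± 0.10), and the glycine methyltransferase gene gnmt (-1.06 ± 0.17 and -0.84 ± 0.16). Of 25 genes listed as export transporters, 4 were lower and 1 higher at 34 hpf, and 3 were lower and 0 higher at 48 hpf. Among them were abcc2, which exports conjugates (-3.08 ± 0.38 and -2.82 ± 0.38), and slc47a1, a toxin extrusion transporter (-2.50 ± 0.38 and -1.81 ± 0.39). The list also holds slco1d1, of an uptake carrier family, which was called at both stages and was lower at 48 hpf (-0.84). Its call at 34 hpf held under all alternatives and omissions (adjusted p at most 0.000992 in edgeR, DESeq2 and limma-voom). The call at 48 hpf was lost without sibling replicate 2, 3 or 4 or any 1 of the 4 knockout libraries (edgeR adjusted p 0.0508 to 0.115).

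Of 38 antioxidant and carbonyl reducing enzymes, 6 were lower and 2 higher at 34 hpf, and 3 were lower and 1 higher at 48 hpf. The lower genes included the catalase gene cat (-0.63 ± 0.13 and -0.58 ± 0.13) and the glutathione peroxidase gene gpx4a (-1.28 ± 0.29 and -2.24 ± 0.30). The gene sod3a fell by more (-4.78 and -8.12), and its calls held in all 8 omissions at each stage. The size of its fall at 34 hpf varied, with -12.6 without knockout replicate 4 and -8.66 in limma-voom. Of 24 other esterases and lipid hydrolases, 2 were lower at 34 hpf, namely pon1 (-0.37 ± 0.10) and faah (-0.58 ± 0.16), and 0 were called at 48 hpf. The call of pon1 was lost without sibling replicate 1, 2 or 4 or knockout replicate 1, 2 or 3 (edgeR adjusted p 0.0549 to 0.0752). That of faah was lost without sibling replicate 1 or 2 or knockout replicate 3 or 4 (adjusted p 0.0624 to 0.11). Neither call was kept with only the compared libraries (adjusted p = 0.106, with 0.00125 to 0.106 over all alternatives and omissions, and 0.0814, with 0.0111 to 0.11). Of 25 P450 genes of sterols, bile acids, steroids, vitamins and prostanoids, 1 was lower and 3 higher at each stage. They included cyp27b1 and cyp24a1, given above, and the sterol demethylase gene cyp51 (1.88 ± 0.23 and 2.79 ± 0.24).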

How the data were processed

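RNA was taken from whole embryos with TRIzol and sequenced from VAHTS Universal V8 libraries, per the labels' protocols. The table that the authors deposited holds raw counts, with 1 row for each gene symbol. According to the submitters' processing notes, reads were handled with FastQC 0.12.1 and Trim Galore 0.6.10, and STAR 2.7.10b, featureCounts 2.0.6 and the build GRCz11 are also listed there. Which annotation and strand setting were used, and how reads with several alignments were counted, is not given in the sources used here, so similar or overlapping genes are uncertain.

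Counts were filtered with filterByExpr (minimum count 10), scaled by TMM and tested over 24084 genes with glmQLFit and glmQLFTest of edgeR 4.0.16 (R 4.3.3), where 1 model held all 4 groups. Levels are CPM on TMM-scaled library sizes (mean ± SD, n = 4). The SE given with a log2 fold change is its size divided by the square root of the F statistic of its test. Such an SE is derived from the test, is approximate and is not a standard error of the fitted coefficient. A ratio against 1 to 3 counts has a 95% counting interval and a ratio against 0 counts uses a group floor of 3 counts, both covering counting error only. The script was tested on simulated data. Alternatives were DESeq2 1.42.0, limma-voom (limma 3.58.1), DESeq2's size factors, upper quartile scaling, no filter, a CPM of at least 1 in 4 libraries, only the compared libraries, the replicate block, other membership limits and each library left out in turn.

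Same-numbered siblings and knockouts of a stage deviated together (r = 0.155, 0.267, 0.279 and 0.208 at 34 hpf, 0.284, 0.174, 0.191 and 0.43 at 48 hpf). The knockout of the same number was the closest for sibling replicates 2 and 3 at 34 hpf and 1 and 4 at 48 hpf, and not for the others. The repeat number may thus pair libraries within a stage, and a block of it was run as an alternative. The main model had no block, so its p-values and SE leave out any such pairing. What a number stands for is not in the labels. No 2 libraries of a group agreed within counting noise.

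The enzymes and the other gene lists were chosen with earlier results of these data known. Named genes were the 14 largest called falls and rises without overlap of the groups in each knockout comparison, the 6 largest either way for the stages, the gene of highest CPM in each family and the gene of smallest p where a family had no call. Lack of overlap in the named falls and rises therefore follows from this choice and is no further evidence. The share of all genes without overlap was not counted. From each further list the 3 called genes of smallest p were eligible. The remaining called enzymes and the uncalled relatives were added after their values were seen.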

Additional observations from a re-analysis of the deposited data

Results flagged for a closer look

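In 15 of the 176 groups of 4 libraries examined, 1 library lay far from the other 3 by Dixon's criterion at 95%. The nominal rate of 1 in 20 groups does not hold for groups of few counts, so the number marked is not set against it. A group with 3 libraries at 0 and 1 above 0 is always marked. Among the falling genes, ces2 stood at 63.1 CPM in 34 hpf knockout replicate 4 and at 0.427 to 2.66 CPM in the other 3. In the same library ces3 stood at 0.656 CPM, beside 0 to 0.1 CPM, and cyp2p8 at 0 CPM, beside 0.0474 to 0.0568 CPM. That library also had the highest summed liver markers (1487 CPM) and yolk syncytial layer markers (3584 CPM) of its group, and the part of these tissues was not tested.

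The 48 hpf knockouts held single libraries with counts of genes that were at 0 in the other 3. These were akr1a1a at 0.0464 CPM and ces3 at 0.0929 CPM in replicate 1 and cyp4v8 at 0.0468 CPM in replicate 4. In replicate 1 cyp4t8 stood at 0.975 CPM, beside 1.48 to 1.56 CPM.

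At 34 hpf, cyp2y3 stood at 201 CPM in knockout replicate 2, beside 128 to 139 CPM. Sibling replicate 3 held adh8b at 114 CPM, beside 124 to 125 CPM. Sibling replicate 4 held cyp2ad3 at 22.2 CPM, beside 17.1 to 17.8 CPM, and ugt2a6 at 3.54 CPM, beside 4.15 to 4.23 CPM. Among the 48 hpf siblings, aldh9a1a.1 stood at 313 CPM in replicate 1, beside 397 to 409 CPM, and cyp2ad3 at 31.1 CPM in replicate 3, beside 26.5 to 27.2 CPM. In replicate 4 of that group gstp1 stood at 153 CPM, beside 193 to 199.9 CPM, and cyp2y3 at 111.97 CPM, beside 92.2 to 93.9 CPM.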

How the results depend on the processing

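No called result reversed under the alternatives run. The number of members higher in the knockouts at 34 hpf (9) was 5 with only the compared libraries and 5 to 9 with 1 library left out, and at 48 hpf (8) it was 3 to 7. The lower members were 26 to 34 at 34 hpf (31) and 25 to 27 at 48 hpf (26) with 1 library left out. In siblings, the lower members (21) were 17 to 20 and the higher members (13) were 9 to 14. DESeq2 called 1 gene with a lower effect at 48 than at 34 hpf, where edgeR called 0, and the cause was not tested. The call held under all alternatives and omissions for 20 of 31 lower and 3 of 9 higher members at 34 hpf, and for 23 of 26 and 3 of 8 at 48 hpf. The replicate block ended the calls of aldh18a1 and sult6b1 at 34 hpf and of aldh3b1 at 48 hpf, as given above, and ended no other call of a member in the knockout comparisons. Without fmoda, fmodb and gstcd, a choice made after seeing the data, 31 were lower and 8 higher at 34 hpf, and 26 and 8 at 48 hpf. Genes of few counts, such as cyp2p8, ces3 and gsta.2, have wide errors, as does ces2 (SE 0.95 at 34 hpf and 1.25 at 48 hpf). A gene near 0 has a fall whose size is set by few reads. A gene not called is not shown to be unchanged.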

Other observations

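The 49 matched symbols below the minimum level were examined apart, and 22 of them had enough counts to be tested. At 34 hpf 3 were lower in the knockouts, 0 were higher, and the same numbers were called at 48 hpf. The sulfotransferase gene sult3st2 held 63 counts over the 34 hpf siblings and 0 over the knockouts, so with a floor of 3 counts set for the knockout group it was lower at least 21.8-fold. At 48 hpf it held 71 counts and 1 count, a ratio of 81.2 (95% counting interval 14.1 to 3250). The glucuronosyltransferase gene ugt2a4 was lower at both stages, with 32 counts over the siblings and 1 over the knockouts at 34 hpf, and 33 and 2 at 48 hpf. The gene cyp2x6 was lower at 34 hpf (-1.82 ± 0.54) and ugt5d1 at 48 hpf (-2.85 ± 0.85). The 49 symbols stood at mean levels of at most 0.849 CPM over all libraries.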
